A study of Mus musculus with 8 samples.

Results

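Of the 87613 R-loop peaks called in GFP mock cells, 33107 (37.8%) overlapped no peak of the other 3 conditions by even 1 bp. These GFP mock only peaks were chosen by that overlap alone, from a list of peaks of every score, and the 4 lists of the series held 344010 peaks in all. They covered 8.27 of the 36.2 Mb under GFP mock peaks, or 22.8%.

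The peaks come from DRIP-seq, in which the S9.6 antibody pulls RNA:DNA hybrids out of digested genomic DNA. The cells were Rtel1F/F;WT RNH1-GFP mouse embryonic fibroblasts (MEFs), so both copies of the gene for the helicase RTEL1 were floxed and all cells carried a doxycycline-inducible RNaseH1 fused to GFP. Cells of the GFP mock group were infected with an adenovirus encoding GFP and received no doxycycline, so they kept Rtel1. GFP DOX cells had the same virus and 2 µg/ml doxycycline, Cre mock cells had a Cre-GFP adenovirus that deletes floxed Rtel1, and Cre DOX cells had both. Doxycycline was added 48 h after infection and cells were collected 48 h later. All 4 groups are of 1 cell line, the virus is not restricted to a cell type, and each group gave 1 DRIP library made from 3 pooled immunoprecipitations. There are therefore no replicates, no test between conditions was possible, and every interval below is an exact Clopper-Pearson 95% interval over peaks or genes that covers counting error only. A peak list does not measure expression and cannot check the cell type. Of 23 fibroblast marker genes, 15 held a GFP mock peak (65.2%), beside 51.8% of all protein-coding genes, and the same number or 1 more held a peak in each other list.

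R-loops are structures in which RNA pairs with a DNA strand and leaves the other strand unpaired. They form mostly behind transcribing RNA polymerase, and are best known at CpG island promoters, at transcript ends and in long or repetitive genes. A G-rich unpaired strand can fold into a G-quadruplex (G4). RTEL1 unwinds G4 DNA, and RNaseH1 degrades the RNA of a hybrid.

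The sequences of 7 strong and narrow GFP mock only peaks are shown first, because their letters differ in kind. They were read from GRCm38 (mm10) on the plus strand, 5′ to 3′, and capitals mark bases in a 25-base window with an absolute G4Hunter score of at least 1.5, where runs of G score above and runs of C below 0. A C-rich plus strand has its G-rich strand opposite. The first 5 were the highest scoring of at most 300 bp with such a window.
chr4:133838742-133838847: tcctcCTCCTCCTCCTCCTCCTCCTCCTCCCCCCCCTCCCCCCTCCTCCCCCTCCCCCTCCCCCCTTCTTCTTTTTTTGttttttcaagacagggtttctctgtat
chrX:98338288-98338488: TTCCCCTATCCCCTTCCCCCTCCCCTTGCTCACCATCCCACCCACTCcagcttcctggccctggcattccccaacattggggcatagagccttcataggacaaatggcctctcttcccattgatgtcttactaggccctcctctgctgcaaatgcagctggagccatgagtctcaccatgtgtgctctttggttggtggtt
chr12:14244620-14244735: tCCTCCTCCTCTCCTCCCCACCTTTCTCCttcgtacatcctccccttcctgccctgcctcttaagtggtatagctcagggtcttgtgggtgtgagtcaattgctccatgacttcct
chr11:107666933-107667048: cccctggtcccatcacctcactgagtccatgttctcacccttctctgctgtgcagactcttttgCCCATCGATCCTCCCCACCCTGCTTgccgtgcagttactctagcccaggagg
chr7:63909104-63909209: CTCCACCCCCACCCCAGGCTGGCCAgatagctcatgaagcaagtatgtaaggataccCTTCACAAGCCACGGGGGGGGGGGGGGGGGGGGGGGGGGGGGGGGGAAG
The chromosome 4 sequence is largely a pyrimidine repeat, with 74 bases in G4Hunter windows, and the Klf13 intron peak on chromosome 7 holds a long unbroken run of G near its end. The peak on chromosome 11 lies in an intron of Helz, and it held the minimum of 25 window bases. The strongest pair of peaks without such a window follow.
chr2:39240482-39240594: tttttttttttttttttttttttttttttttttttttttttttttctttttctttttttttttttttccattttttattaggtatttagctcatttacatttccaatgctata
chr9:23022943-23023059: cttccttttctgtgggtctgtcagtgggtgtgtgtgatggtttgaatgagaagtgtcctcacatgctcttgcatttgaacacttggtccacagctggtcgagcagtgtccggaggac
The first of these, at chromosome 2, is mostly T, above all in its first part, with a GC content of 12.4% and complete repeat-masking. The second has a GC content of 51.3%. Promoter peaks are represented by the 3 highest scoring that lay within 1 kb of a protein-coding start site and outside annotated UTRs, of Ube2b, 0610009B22Rik and Crygd in that order.
chr11:51999561-51999688: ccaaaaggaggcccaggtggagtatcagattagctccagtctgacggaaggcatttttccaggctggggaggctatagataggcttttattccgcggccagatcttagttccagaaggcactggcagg
chr11:51688927-51689070: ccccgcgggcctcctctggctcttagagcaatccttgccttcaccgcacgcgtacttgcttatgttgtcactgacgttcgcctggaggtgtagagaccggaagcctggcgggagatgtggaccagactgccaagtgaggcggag
chr1:65064279-65064384: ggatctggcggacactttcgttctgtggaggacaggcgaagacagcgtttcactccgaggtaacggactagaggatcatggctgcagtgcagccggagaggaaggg
None of these 3 promoter sequences held a window at the threshold. Their highest absolute G4Hunter scores were 1.04, 0.600 and 0.600.

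GFP mock only peaks were weak and narrow. Scores, as deposited, are −log10 q-values multiplied by 10. Their median score was 17, with quartiles of 14 and 22 and a range of 10 to 162. The other 54506 GFP mock peaks had a median of 19 and reached 1697. Fold enrichment over the caller's local background had a median of 3.46, against 3.60 in the other peaks. The median width was 199 bp against 372 bp. These values bear on whether peaks overlap, so they describe the selection and were not tested.

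The share of GFP mock peaks that were GFP mock only fell in steps as score rose. It was 49.7% of 20266 peaks scoring 10 to below 15, 28.5% of 6561 peaks scoring 33 to below 50, and 0.923% of 542 peaks scoring 100 or more, which is 5 peaks. In the top decile of scores, at 33 or more, lay 2190 GFP mock only peaks (6.61%, 6.35 to 6.89). A −log10 q-value below 2 was held by 65.1% of them and by 52.5% of the other GFP mock peaks.

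Width set a limit of its own, because each list had its own narrowest peak. In GFP mock it measured 106 bp, close to the 107 bp of GFP DOX, while Cre mock began at 132 bp and Cre DOX at 213 bp. Exactly 106 bp was the width of 7685 GFP mock only peaks (23.2%) and of 7.80% of the others. Peaks at least 213 bp wide, which every list could hold, numbered 15460 among the GFP mock only peaks. Neither library depth nor the caller's settings can be told apart from condition here.

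At the edge of the rule, values on either side were alike. Within 10 bp of another list's peak lay 286 GFP mock only peaks, with a median score of 17.0 and a median fold enrichment of 3.45. The 284 GFP mock peaks that overlapped another list by at most 10 bp had medians of 16.0 and 3.42. A peak at chr7:15667519-15667666, with a score of 37, touched a Cre mock peak without overlap and was kept, whereas a peak at chr15:61882443-61882555, with a score of 38, overlapped a Cre mock peak by 1 bp and was not.

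The nearest peak of any other list lay a median of 3498 bp from a GFP mock only peak, with quartiles of 830 and 10704 bp. By list, the median gap was 16162 bp to GFP DOX, 8521 bp to Cre mock and 8144 bp to Cre DOX. These gaps follow the number of peaks in the lists, which was 60219, 91097 and 105081. A neighbour within 500 bp was found for 17.9% of GFP mock only peaks, and 26.5% had none within 10 kb.

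Because DNA was cut with EcoRI, HindIII, BsrGI, SspI and XbaI before the pull-down, the unit captured is a restriction fragment and not a peak. In the reference, the fragment or fragments under 24503 GFP mock only peaks (74.0%, 73.5 to 74.5) carried no peak of another list. The rest shared a fragment with another condition's peak while overlapping none. This share was higher in the top decile, at 82.3% (80.7 to 83.9). It was lower for promoter peaks, at 63.6% (62.0 to 65.1), than for intergenic peaks, at 76.8% (76.1 to 77.5).

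By genic position, introns and intergenic DNA held most GFP mock only peaks. Each peak was placed in the first class it touched of promoter (within 1 kb of any annotated start site), coding exon, other exon, intron and intergenic. Introns held 11479 (34.7%, 34.2 to 35.2), against 24.1% of the other GFP mock peaks. Intergenic DNA held 16127 (48.7%, 48.2 to 49.3), against 58.1%. Promoters held 3783 (11.4%, 11.1 to 11.8), against 13.7% (13.4 to 14.0). Coding exons held 1063 (3.21%, 3.02 to 3.41), against 2.80%.

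Placed by midpoint, 10.5% of GFP mock only peaks were in promoters, which make up 6.05% of genome bases. The corresponding pair was 1.67% and 0.949% for coding exons, 36.8% and 38.3% for introns and 49.1% and 52.4% for intergenic DNA. GFP mock only peaks were thus more frequent per base in promoters and coding exons than across the genome.

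The intergenic contrast turned round when peaks were split by repeat content. A median of 50.9% of the bases of a GFP mock only peak was repeat-masked, against 95.5% in the other GFP mock peaks. Among peaks that were at most 50% masked, 35.0% (34.3 to 35.8) of the 16426 GFP mock only peaks were intergenic, and 21.4% (20.8 to 22.1) of the other 15333. In the same peaks, promoters took 18.3% (17.8 to 18.9) of the GFP mock only peaks and 41.9% (41.1 to 42.6) of the others. Among peaks over 50% masked, the order was opposite for both, with 62.2% against 72.4% intergenic and 4.62% against 2.65% promoter. The larger intron share of GFP mock only peaks held in both strata, at 37.2% against 23.5% and at 32.2% against 24.3%.

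**Figure D1:**
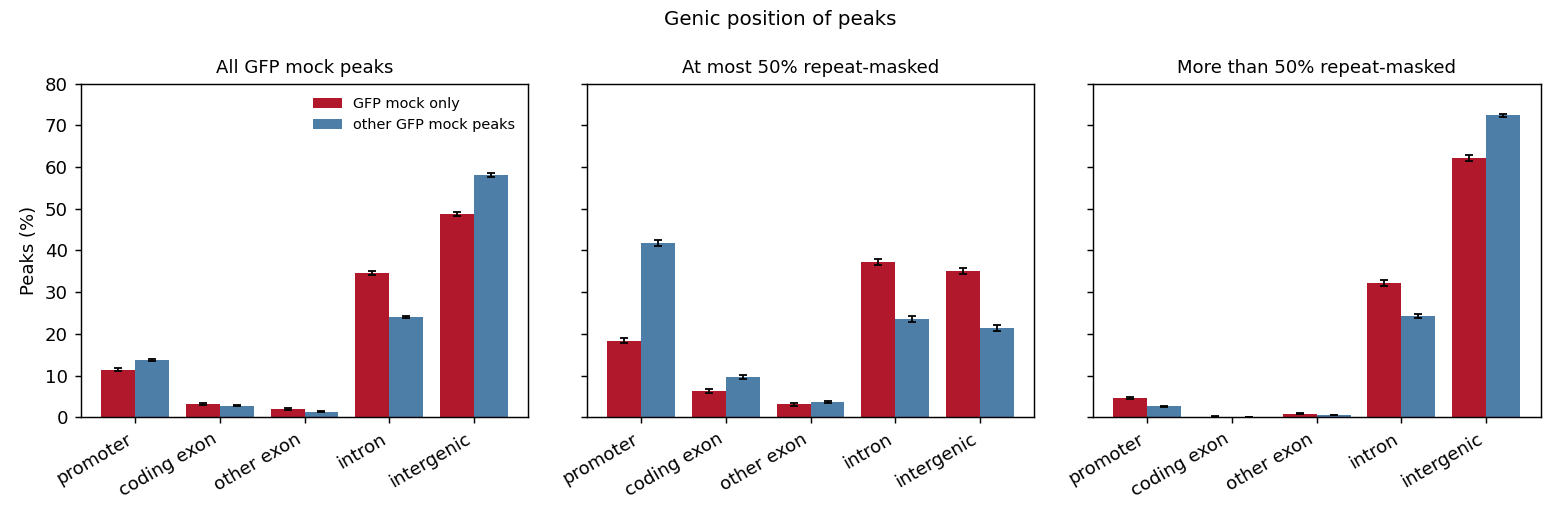
Share of GFP mock only peaks (red) and of the other GFP mock peaks (blue), in percent, in each genic class, for all peaks and split at 50% repeat-masked bases. Bars start at 0 and error bars are exact 95% intervals over peaks. Among peaks at most 50% masked, promoters hold 18.3% of the red and 41.9% of the blue set, and the intergenic order is opposite to that among all peaks.

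About protein-coding start sites, GFP mock only peaks were spread at middle distances. The median distance of the midpoint from the nearest start site was 24641 bp, against 45710 bp for the other peaks. The 500 bp downstream of a start site held 923 GFP mock only peaks (2.79%) against 4.47% of the others, and the 500 bp upstream held 2.29% against 3.18%. Between 1 and 10 kb, shares were higher than in the others on both sides, at 12.6% against 8.31% upstream and 12.3% against 9.21% downstream. Beyond 100 kb upstream they were lower, at 13.1% against 20.2%.

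**Figure D2:**
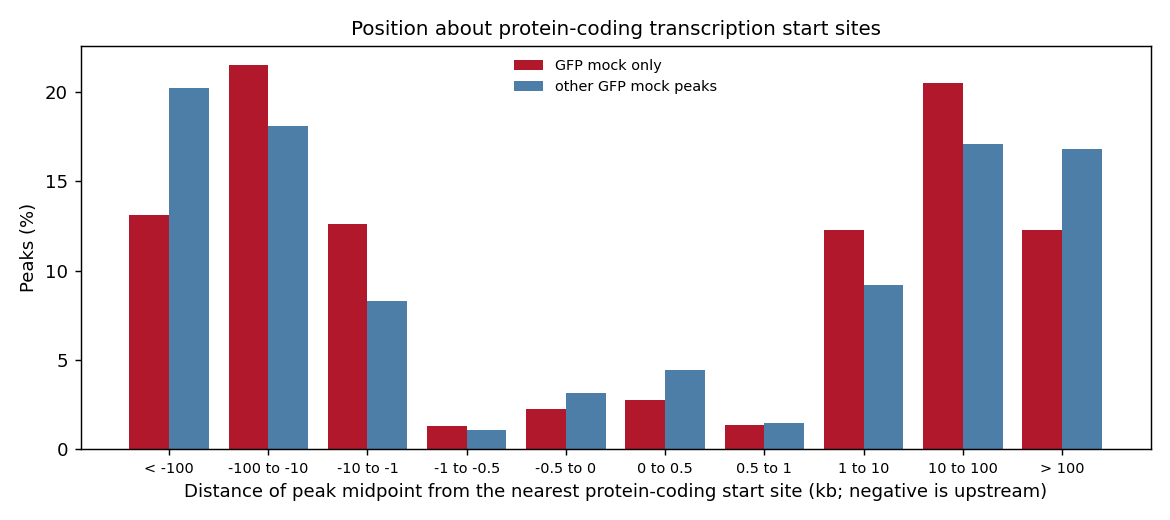
Distance of peak midpoints from the nearest protein-coding transcription start site, in bins in kb with upstream negative, against the percent of GFP mock only peaks (red) and of other GFP mock peaks (blue). The red bars are lower within 0.5 kb of the start and higher from 1 to 100 kb on both sides.

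Along the bodies of protein-coding genes, split into 5 equal parts from start to end, GFP mock only peaks were nearly even. The first part held 23.7% of them and the others 18.5% to 19.9%. Of the other GFP mock peaks the first part held 28.1%. Within 1 kb of an annotated transcript end lay 9.54% (9.23 to 9.87) of GFP mock only peaks and 9.54% (9.29 to 9.79) of the others, so no difference was detectable.

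GFP mock only peaks were richer in GC than the other GFP mock peaks, with a median of 48.3% against 43.4%, and 41.7% for the genome. Above 60% GC the order changed, since 6.13% (5.88 to 6.40) of them and 8.19% (7.96 to 8.42) of the others reached it. Runs of at least 10 CA units, read on both strands, were found in 1382 of them (4.17%, 3.96 to 4.40) and in 2.19% of the others. Genome tiles of 199 bp, the median width of the GFP mock only peaks, held such a run in 1.93% of cases. Runs of at least 10 GA units were found in 1.69% of GFP mock only peaks and 0.954% of the others, although the others were wider. Runs of TA went the other way, at 0.0362% (0.0187 to 0.0633) and 0.0642% (0.0447 to 0.0893), with overlapping intervals and 0.277% in genome tiles.

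A predicted G4 was present in 8227 GFP mock only peaks (24.8%, 24.4 to 25.3) and in 23.9% (23.5 to 24.2) of the other GFP mock peaks. In 199-bp genome tiles the share was 10.0%. The contrast between both sets of peaks depended on what was held level. Within each of 4 width ranges, GFP mock only peaks had the higher share, for example 14.6% against 11.6% up to 150 bp and 59.1% against 37.5% over 600 bp. Within each GC range from 40% upward they had the lower share, for example 32.7% against 44.4% at 50 to below 55% GC and 60.2% against 77.6% at 60% and over. Among peaks at most 50% masked the share was 28.2% against 49.0%, and among more masked peaks 21.6% against 14.0%. In the top decile of scores it was 20.7% against 33.4%. With a G4Hunter score of at least 2 the overall order also turned, to 10.8% against 12.8%, and with a regular expression of G runs it was 10.2% against 13.0%.

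**Figure D3:**
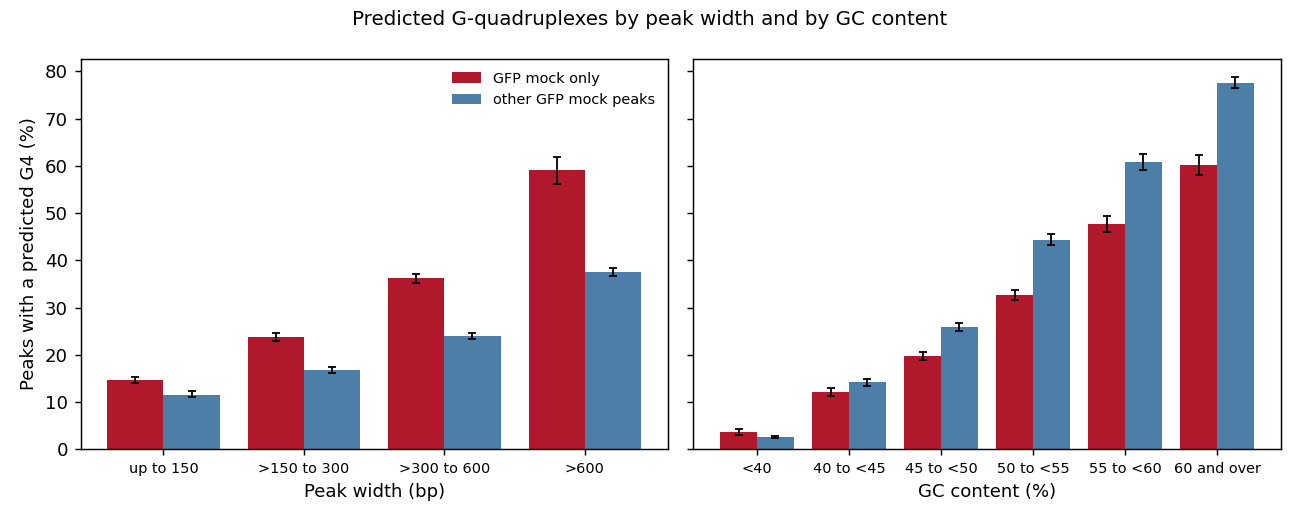
Share of peaks with a predicted G4, in percent, by peak width in bp (left) and by GC content (right), for GFP mock only peaks (red) and other GFP mock peaks (blue), with exact 95% intervals. Red bars are higher in every width range and lower in every GC range from 40% upward.

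Inside protein-coding genes the G-rich strand of a predicted G4 was the sense strand in 1616 of 3364 GFP mock only peaks with a G4 on a single strand (48.0%, 46.3 to 49.7) and in 49.9% (48.4 to 51.3) of the others, and these intervals overlap.

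The strongest GFP mock only peak of all was the T-rich one at chr2:39240482-39240594, with a score of 162 and a fold enrichment of 7.93. It lay 14087 bp upstream of Ppp6c, which encodes the catalytic subunit of a protein phosphatase. The second, at chr9:23022943-23023059, scored 105 and was intergenic, far from any protein-coding start. A peak at chr13:13537122-13537240, with a score of 102, was intergenic too and lay 577 bp from a Cre DOX peak. The fourth scored 102 and was a wider peak of 454 bp in an intron of Upk3bl, a uroplakin-like gene, at chr5:136063071-136063524. Next came a peak in an intron of Slc24a1, an ion exchanger of rod photoreceptors, with a score of 101. Over a coding exon of Grik4, a kainate receptor subunit, lay a peak at chr9:42591509-42591628 with a score of 97 and no neighbour of another list within 29788 bp. An intergenic peak with a score of 92 lay 436 bp from a Cre mock peak and 3834 bp upstream of Borcs6, of a lysosome-positioning complex. Of the 8 highest-scoring peaks, 7 shared their restriction fragment with no other list.

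Among GFP mock only peaks in promoters of protein-coding genes, scores were lower. The highest, 71, lay at the start of Pou4f3 (chr18:42394159-42394640), a transcription factor of inner ear hair cells, with a GC content of 64.3% and a fold enrichment of 6.02. Its midpoint was 139 bp upstream of the start site, and the nearest peaks of the other lists were 4118 bp or more away. At Eepd1, a nuclease-domain gene, a peak of 111 bp scored 68 and lay across the start, with its midpoint 27 bp upstream and 54649 bp to the nearest other peak. At Dbr1, the lariat debranching enzyme, a peak scored 67 and the nearest other peak was 54388 bp away. Ube2b, a ubiquitin-conjugating enzyme, had a peak that scored 64, but a Cre mock peak lay 119 bp from it. At Tmem40 the peak scored 61 and a GFP DOX peak lay 491 bp from it. The remaining 3, at 0610009B22Rik, the lens crystallin gene Crygd and Grip2, a glutamate receptor scaffold, scored 60, 59 and 58, and the first of them had a Cre DOX peak 809 bp away. Promoter peaks of Ube2b, Tmem40 and 0610009B22Rik thus sat within 1 kb of peaks of other conditions.

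Over coding exons outside promoters, the highest scores after the 97 of Grik4 were 70 in Atp10d, a phospholipid flippase gene that the annotation types as a polymorphic pseudogene, 57 in Plxna4, a semaphorin receptor, 55 in Tbc1d1, a Rab GTPase-activating protein, and 54 in Ap3b1, a subunit of the AP-3 adaptor. All 5 were 116 to 143 bp wide and shared a restriction fragment with no other list.

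At the level of genes, most of those with a GFP mock peak held at least 1 that was GFP mock only. This was so for 7365 of 11379 protein-coding genes (64.7%). A single GFP mock only peak was held by 4231 of them. The share of a gene's peaks that were GFP mock only was lowest in short genes, at 28.9% under 10 kb, and 48.9% in genes of 100 to below 300 kb. Per 100 kb of gene, their number fell from 2.49 under 10 kb to 0.858 from 300 kb upward.

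The genes with the most were long. Gm20388, a gene model of 4435 kb that spans many others, held 132 of 247 GFP mock peaks. Fgfr2, a fibroblast growth factor receptor annotated over 2961 kb in this release, held 22 of 34 GFP mock peaks, and Lhfpl3 held 19 of 29. The synaptic scaffold Magi2 and the homeobox gene Zfhx3 each held 18, of 43 and 26 GFP mock peaks, as did Rbfox3, of 33, which ranked below them by its best score. These 6 genes also held peaks of the other 3 lists. For Magi2 the GFP DOX list had 26 peaks, the Cre mock list 48 and the Cre DOX list 49.

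Fewer genes had peaks in GFP mock alone. A body with a GFP mock peak and no peak of another list was found for 821 of 11379 protein-coding genes (7.22%), for 597 of 2993 long non-coding RNA genes (19.9%) and for 195 of 657 pseudogenes (29.7%). The median length of these protein-coding genes was 15.7 kb, against 45.6 kb for those with any GFP mock only peak. These long non-coding RNA genes and pseudogenes were shorter, with medians of 8.31 and 0.790 kb. Among short protein-coding genes the share was 14.3% under 10 kb and 18.5% under 3 kb. Over all gene types such a body was found for 1703 of 15447 (11.0%). In promoters the share was higher, since 1948 of 10162 genes with a GFP mock promoter peak (19.2%) had a GFP mock only peak there and no promoter peak of another list. For protein-coding genes this was 1004 of 6755 (14.9%).

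Cdh1, which encodes the adhesion molecule E-cadherin of epithelia, led the protein-coding genes with no peak of another list. All 5 of its GFP mock peaks, over 66.9 kb at chr8:106603351-106670246, were GFP mock only. The first lay in the promoter window, at chr8:106604075-106604396, with a GC content of 62.7% and a score of 14. The other 4 lay in introns and scored 14, 16, 29 and 22. The nearest peak of another list was 20629 bp away.

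Il20rb, a receptor subunit for interleukin-20 family cytokines, held 4, with scores of 23, 19, 32 and 18, and the nearest other peak was 54318 bp away. Rnf144a, a ubiquitin ligase, held 4 over 114 kb, with scores of 15, 28, 17 and 16. The nearest peak of another list was 120426 bp away. Its promoter peak, at chr12:26414972-26415250, had a GC content of 78.1%. Fa2h, a fatty acid 2-hydroxylase, held 4 intronic peaks with scores of 13, 15, 18 and 23. Eps8l3, of the EPS8 family of actin regulators, held 3 with scores of 28, 43 and 14, and a peak of another list lay 966 bp from the first. Other genes without another list's peak also held 3, and Eps8l3 came first among them by its best score. Of these scores, only the 43 in Eps8l3 lay in the top decile.

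Among 10 gene lists, histone genes had the highest share with no peak of another list. Of 67 listed, 13 held a GFP mock peak in the body, and 8 of these (61.5%, 31.6 to 86.1) held no peak of another list, beside 7.22% of all protein-coding genes and 18.5% of 395 protein-coding genes under 3 kb. Of 18 histone promoters with a GFP mock peak, 12 had none of another list, beside 18.9% of the promoters of genes under 3 kb. These counts are of genes and not of peaks, since a single peak served Hist2h2ab, Hist2h2ac and Hist2h2be, another Hist2h2bb and Hist2h3b, and another Hist1h2bf and Hist1h2ad. The genes were Hist2h2ab, Hist2h2ac, Hist2h2bb, Hist3h2ba, Hist1h2bf, Hist1h3d, Hist1h1t and Hist1h1a, which encode core histones of the H2A, H2B and H3 families and linker histones.

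The histone peaks were few and weak. Hist3h2ba had the strongest, at chr11:58948938-58949195, with a score of 35, a fold enrichment of 4.35 and a GC content of 58.5%. At Hist1h3d the score was 25 and at Hist1h2bf it was 19. Hist2h2ab and Hist2h2ac, which converge, shared 1 peak that scored 13, and Hist2h2bb, Hist1h1t and Hist1h1a had peaks that scored 13 as well. The other lists had peaks on histone genes too, with 2 genes for GFP DOX, 8 for Cre mock and 9 for Cre DOX. None of these is among the 8 named, by their definition, although the promoter window of Hist1h1a did hold a peak of another list. Histone genes have near-identical copies, and how reads that map to several copies were treated is not given in the sources used here, so the member of the family under a peak is uncertain.

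Ribosomal protein and immediate early genes held few. Of 43 ribosomal protein genes with a GFP mock peak, 7 (16.3%, 6.81 to 30.7) held a GFP mock only peak, beside 64.7% of all protein-coding genes, 39.7% of those under 10 kb and 29.6% of those under 3 kb, the last of which lies inside the interval. Of their 69 GFP mock peaks, 9 (13.0%) were GFP mock only. The strongest were at Rpl27, with a score of 24, and at Rpl3, with a score of 22 and 3 of its 6 GFP mock peaks GFP mock only. Of 15 immediate early genes with a GFP mock peak, 2 (13.3%, 1.66 to 40.5) held one, an interval that takes in both short-gene shares. These were the stress-induced Atf3, with 2 and a best score of 28, and Fosb, with a score of 13. Only 3 of 40 peaks (7.50%) on immediate early genes were GFP mock only, beside 42.6% on all protein-coding genes and 28.9% on those under 10 kb. With no peak of another list were 1 of the 43 ribosomal protein genes (2.33%, 0.0589 to 12.3) and 0 of the 15 immediate early genes (0 to 21.8), intervals that take in the 7.22% of all protein-coding genes. The shares of genes under 10 kb (14.3%) and under 3 kb (18.5%) lie above the ribosomal interval and inside the immediate early interval.

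Long neuronal and fragile site genes all held GFP mock only peaks. This was so for 22 of 22 neuronal adhesion and synapse genes, with 148 such peaks, and for 13 of 13 fragile site genes, with 130. It was so for 532 of 555 protein-coding genes of 300 kb or more with a GFP mock peak (95.9%). Of the GFP mock peaks in these lists, 39.7% and 42.3% were GFP mock only, beside 42.7% in genes of 300 kb or more. Every gene of both lists also held a peak of another list, and only 2 of the 555 genes of 300 kb or more did not. Per 100 kb they had 0.530 and 0.741 GFP mock only peaks, fewer than the 0.858 of all protein-coding genes from 300 kb upward. Among the neuronal genes the highest scores were 57 in Cntnap2, a neurexin-family adhesion protein, with 12 of 33 GFP mock peaks, and 51 in Csmd3, with 11 of 41. Among the fragile site genes they were 60 in Wwox, with 9 of 11, and 59 in Ctnna3, an alpha-catenin, with 12 of 20.

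In the other 5 lists the share with a GFP mock only peak was below the 64.7% of all protein-coding genes, but for fibroblast matrix genes, R-loop and G4 factors and developmental transcription factors the interval takes that value in. Of 15 fibroblast matrix genes with a GFP mock peak, 8 (53.3%, 26.6 to 78.7) held a GFP mock only peak. None was without a peak of another list (0 to 21.8), an interval that takes in the 7.22% of all protein-coding genes. The highest scores were 28 in the collagen gene Col5a2 and 25 in the receptor Pdgfrb. Among 15 R-loop and G4 factors 8 (53.3%, 26.6 to 78.7) held one, led by the helicase Brip1 with a score of 46 and the splicing-linked helicase Aqr with 29. Odorant and vomeronasal receptors, which sit in large clusters of similar genes, had 97 of 204 with one (47.5%, 40.5 to 54.6), below the 64.7% of all protein-coding genes and above the 39.7% of those under 10 kb, and 37 (18.1%, 13.1 to 24.1) with no other list's peak, beside 14.3% of protein-coding genes under 10 kb. Vmn2r65 scored 49 and Olfr56 scored 41, with the same uncertainty about similar copies as for histones. Developmental transcription factors had 73 of 118 with one (61.9%, 52.5 to 70.6), above the 39.7% of protein-coding genes under 10 kb. With GFP mock peaks alone were 13 (11.0%, 6.0 to 18.1), an interval that takes in the 14.3% of those short genes. The highest scores of this list were 71 in Pou4f3 and 48 in the limb gene Tbx4, which also held peaks of every other list. Zinc finger genes, of a median length of 17.5 kb, had 112 of 196 with one (57.1%, 49.9 to 64.2). Of protein-coding genes of 10 to below 30 kb with a GFP mock peak, 56.7% had one. With GFP mock peaks alone were 10 zinc finger genes (5.10%, 2.47 to 9.18), an interval that takes in the 7.22% of all protein-coding genes. The highest scores of this list were 57 in Zfp787 and 48 in Zfp174, which both also held Cre mock peaks.

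**Figure D4:**
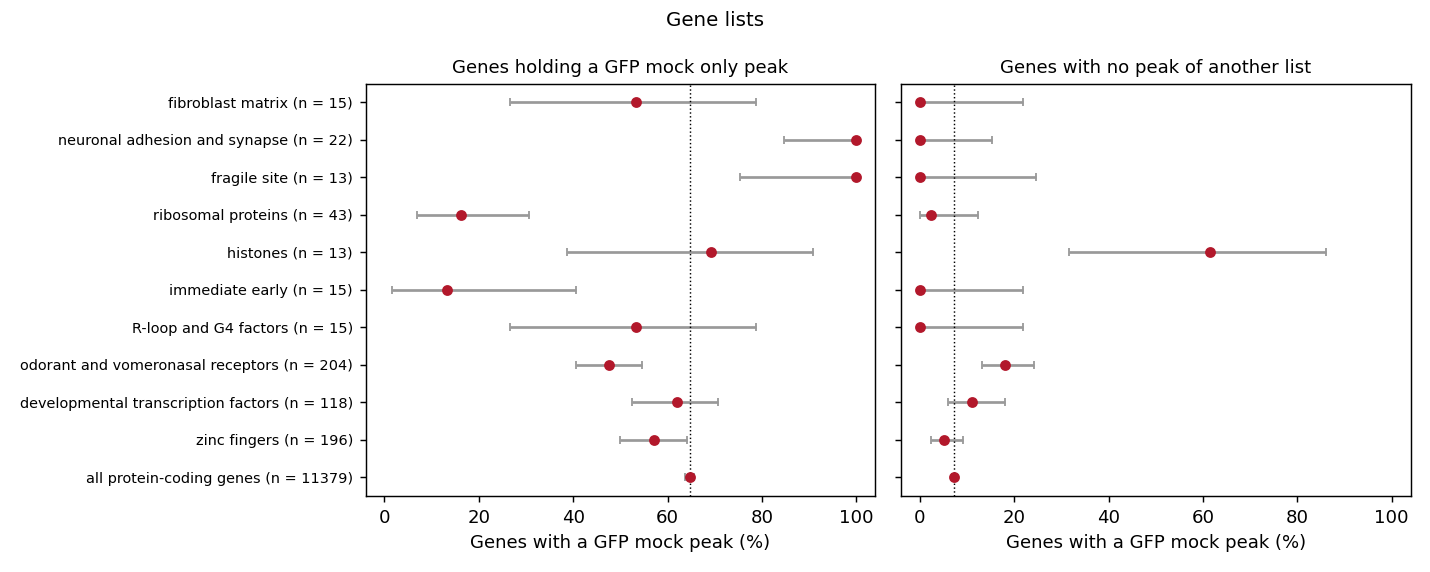
Percent of the genes with a GFP mock peak in the body (n in brackets) that hold a GFP mock only peak (left) or no peak of another list (right), with exact 95% intervals; the dotted line is the value of all protein-coding genes. Ribosomal protein and immediate early genes sit at 16.3% and 13.3% on the left, and histone genes at 61.5% on the right.

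GFP mock only peaks clustered less often than the other GFP mock peaks, a larger set. Peaks were chained while neighbours lay at most 10 kb apart, and a chain of at least 3 was a cluster. Clusters held 3783 GFP mock only peaks (11.4%, 11.1 to 11.8), which by coincidence is the number in promoters, in 1118 clusters. The other GFP mock peaks, chained in the same way, were in clusters in 45.6% (45.2 to 46.0) of cases. That set is larger, at 54506 peaks, and the sets were not matched in size. With links of 5 kb the shares were 4.69% against 34.7%, and with 20 kb 26.2% against 60.1%. Most clusters were small, with 824 of 3 peaks and 198 of 4.

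The cluster with the most had 9 peaks over 25.9 kb at chr2:166550944-166576822, and all 9 GFP mock peaks of that span were GFP mock only. Of these, 6 were intergenic and 3 lay in Prex1, a Rac exchange factor, with scores from 14 to 35, and 6 held a predicted G4. The span also held 2 GFP DOX, 3 Cre mock and 3 Cre DOX peaks that overlapped none of them. A cluster of 8 at chr5:111507763-111535580 was wholly intergenic. Another 8 lay at chr11:96995165-97026199 over Sp6, an epithelial transcription factor, and 7 of these held a predicted G4. At Cxxc5, a CXXC zinc finger gene, 8 spread over 39.7 kb at chr18:35855566-35895250, with 4 in promoters. That span also held 1 GFP DOX peak, 2 Cre mock peaks and 1 Cre DOX peak. A cluster of 7 at chr11:78871299-78883624 was intergenic, had 3 with a predicted G4 and spanned 1 peak of each other list. It had the shortest span of 3 clusters of 7.

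In 373 clusters, with 1192 peaks, the span was free of other lists' peaks. The one with the most peaks, 6 over 22.8 kb at chr5:93026737-93049572, covered Sowahb. Clusters of 5 lay at Kcnj4, a potassium channel, at Adgrf3, an adhesion receptor, with a best score of 47, and at Lrig2, a membrane protein.

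Across chromosomes the share of GFP mock peaks that were GFP mock only ran, leaving aside Y and M, from 23.4% (22.4 to 24.4) on X and 29.3% (28.3 to 30.3) on chromosome 3 to 46.0% (43.6 to 48.3) on chromosome 12 and 49.0% (47.3 to 50.7) on chromosome 9. Chromosomes 3 and X were also low in Cre mock, where 28.9% and 17.5% of peaks were in that list only, and in GFP DOX, at 14.9% and 9.88%. In Cre DOX, chromosome 3 was low too, at 36.7%, but X had 43.0%, near that list's 46.2%, and chromosome 15 was the lowest of those drawn, at 32.8%. Chromosome 9 was high in both, at 47.8% and 28.2%. In GFP mock only peaks per Mb the order differed, with 20.3 on chromosome 15, 20.2 on chromosome 11 and 6.83 on chromosome 12. All GFP mock peaks numbered 60.1, 45.5 and 14.9 per Mb on these chromosomes. On Y, 1 of 15 peaks was GFP mock only, and on M, 0 of 3, which allows a share of up to 70.8% by the exact interval. At least 1 GFP mock only peak lay in 2571 of 2737 windows of 1 Mb, with a median of 10 and a maximum of 60, in the window from 98000001 to 99000000 of chromosome 15. That window held 143 GFP mock peaks, of which 42.0% were GFP mock only, beside 37.8% of the whole list.

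**Figure D5:**
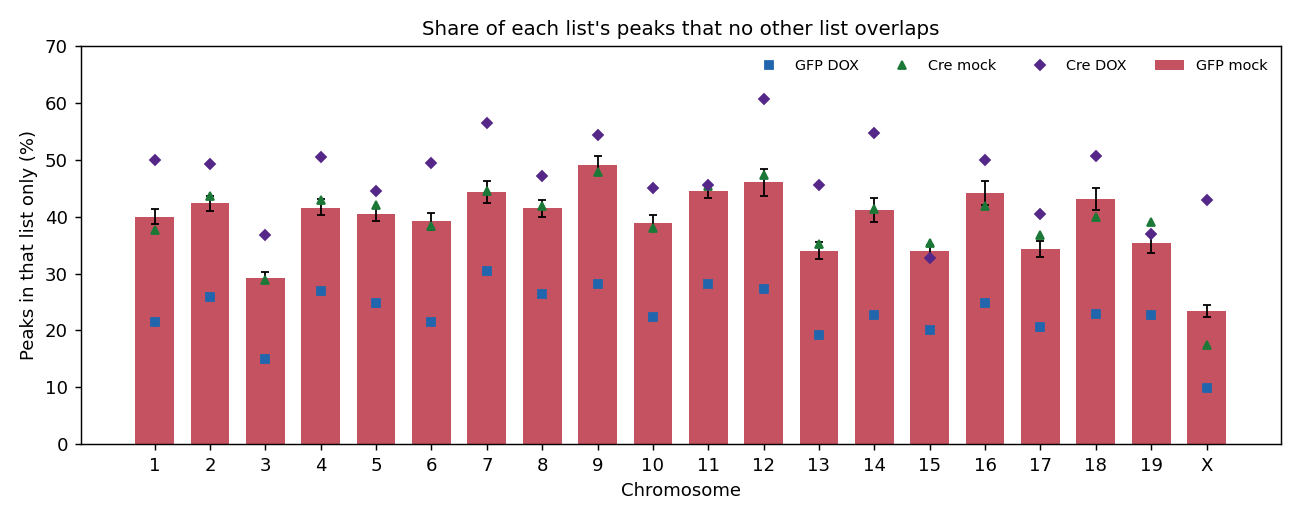
Percent of each list's peaks that no other list overlaps, by chromosome, for GFP mock (bars from 0, with exact 95% intervals) and for GFP DOX, Cre mock and Cre DOX (points, without intervals). Chromosomes Y and M, with 15 and 3 GFP mock peaks, are not drawn. Of the bars shown, GFP mock is lowest on X (23.4%) and highest on chromosome 9 (49.0%), and the Cre mock points lie close to the bars on most chromosomes.

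Peaks found in only 1 list were not particular to GFP mock. The GFP DOX list had 13157 such peaks (21.8%), the Cre mock list 34620 (38.0%) and the Cre DOX list 48564 (46.2%). Next to the Cre mock only peaks, those of GFP mock were narrower, with medians of 199 and 234 bp, more repeat-masked, with 50.9% and 22.9%, and more often intergenic, with 48.7% and 33.5%. Their GC content was close, at 48.3% and 47.7%, and so was the share with a predicted G4, at 24.8% and 25.3%. Cre DOX only peaks were the widest, at 363 bp, the most masked, at 93.9%, and the least often in promoters, at 6.94%. GFP mock peaks shared with just 1 other list were most often shared with Cre DOX, in 13856 cases, followed by Cre mock with 6063 and GFP DOX with 2337, whereas 16739 (19.1%) were shared with all 3. These sets differ in the number and width of peaks behind them, and the part that plays was not tested.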

How the data were processed

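The 8 samples were 4 S9.6 libraries and 4 inputs. The 4 peak lists were used, and the inputs, which come with no list here, were not analysed. The authors trimmed reads, aligned them to mm10 with BWA and called peaks with MACS2 per library, through nf-core/chipseq 1.2.1. Lists are in broad-peak format, although the command names narrow peaks, and whether inputs were the control is not stated. The authors deposited, per peak, a score (10 times −log10 q, rounded down), a fold enrichment, which is a ratio to local background, and −log10 values of p and q, all from MACS2 and none normalised between libraries. Depth is unknown, so fewer reads and fewer hybrids cannot be told apart, and peaks of different lists were compared by overlap of at least 1 bp only.

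Genes were those of GENCODE M21 and sequence that of GRCm38.p6, whose chromosome lengths fit all peaks. Lower-case reference bases were taken as repeat-masked. Promoters were 1 kb to either side of a start site, as the authors set them, whereas the authors' restriction to the top decile of scores was used as an alternative. Predicted G4 came from G4Hunter (window of 25, score of at least 1.5). Python 3.11.15, numpy 2.4.6, pandas 2.3.3 and scipy 1.17.1 were used, and the overlap, G4 and cluster functions were tested on simulated data.

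Genes were named by rule: the 8 highest-scoring peaks, the 8 highest in protein-coding promoters, the 5 highest in coding exons, the 5 genes with the most peaks, the same among genes with no other list's peak, the 5 largest clusters and the 2 highest-scoring genes of each gene list. Histone genes in GFP mock alone and clusters free of other peaks were named after their values were seen. A named peak and a sequence that this rule selects are not reported here. The peaks and gene lists were chosen with earlier results of these data known.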

Additional observations from a re-analysis of the deposited data

How the results depend on the processing

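No paired analysis was possible because each condition has 1 library. Of 40 alternatives, 10 left the value within 1.5 times (counts) or within its interval (shares). The 33107 GFP mock only peaks numbered 27191 when a gap of at most 500 bp counted as shared, 40727 when overlap of at least 50% of the peak was needed, and 35444, 39170 and 46963 without the GFP DOX, Cre mock and Cre DOX list. They fell to 2190 in the top decile, 11558 with −log10 q at 2 or more and 16426 when at most 50% masked, and were 4916 with top-decile peaks in all lists. Peaks at least 213 bp wide, an alternative chosen after seeing the data, numbered 15460.

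The promoter share was 10.6% with the 500 bp gap, 10.1% in the top decile, 18.3% when at most 50% masked, 12.8% at 213 bp or more, 7.82% with 500 bp windows and 10.5% by midpoint. It was below that of the other GFP mock peaks in all 6 cases. The intergenic share was 50.1% in the top decile, 35.0% when at most 50% masked, 47.5% at 213 bp or more and 57.5% with protein-coding genes alone, and it exceeded that of the others in the masked case only. The G4 share was 20.7%, 28.2% and 34.4% under the first 3 of these settings, 10.8% with a score of at least 2 and 10.2% by regular expression, above that of the others at 213 bp or more and with the 500 bp gap alone.

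The clustered share was 7.96% with the 500 bp gap, 0.137% in the top decile, 7.72% when at most 50% masked, 4.83% at 213 bp or more, 4.69% with links of 5 kb and 26.2% with 20 kb. Genes in GFP mock only were 821 among protein-coding genes and 151 in the top decile, and promoters in GFP mock only were 147 in the top decile. The share alone on a restriction fragment was 72.7% with short fragments joined. These counts have no library replicates behind them, and read depth, which limits weak peaks, is unknown.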
